A study of Mus musculus with 20 samples.

Results

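Fibronectin (Fn1), periostin (Postn), biglycan (Bgn), decorin (Dcn), lumican (Lum), fibrillin-1 (Fbn1), fibulin-2 (Fbln2), SPARC (Sparc), tenascin-C (Tnc) and lysyl oxidase (Lox) were followed by RNA sequencing through 20 mouse libraries. These 10 genes, which encode glycoproteins and proteoglycans of the matrix that fibroblasts secrete and an enzyme that crosslinks it, were taken by their symbols from 22102 entries of a differentiation time course and from 42115 entries with values of a survey of cell lines, called the discovery set here. All 10 were found in both. The study asked how the long noncoding RNA Braveheart, whose level was not analysed here, bears on the differentiation of embryonic stem cells towards heart muscle. In the time course, the cells were E14 embryonic stem cells (strain 129/Ola) that carried a lentiviral short hairpin RNA and were selected with puromycin. Cultures with hairpin A and with hairpin B against Braveheart were set against a culture with a scrambled hairpin, and each of the 3 cultures gave 1 library at days 0, 3, 6 and 9. Differentiation through embryoid bodies and directed differentiation are both described in the labels, without saying which of them these cultures went through. The discovery set held 2 partially reprogrammed lines (11.3, also named MCV6, and 11.5, also named MCV8), 1 fully reprogrammed induced pluripotent line (miPS MCV8.1), 1 library of the mouse embryonic fibroblasts (MEF) from which these lines were made, and 4 libraries of mouse embryonic stem cells (mESC), 2 of line E14 and 2 of line v6.5. The MEF, the reprogrammed lines and v6.5 were of the cross 129/svJae x C57BL/6. Both stem cell lines were wild type, and E14 was again 129/Ola. MEF and reprogrammed lines carried Oct4-GFP, and the reprogrammed lines had received Oct4, Sox2, Klf4 and c-myc by retrovirus. Per the labels, stem cells and miPS cells of the discovery set grew on irradiated MEF feeders that were removed by pre-plating before harvest, while lines 11.3 and 11.5 grew without feeders.

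The extracellular matrix of connective tissue is built on collagen fibrils, onto which glycoproteins and small leucine-rich proteoglycans are laid. Fibronectin forms fibrils on cell surfaces by binding integrins and acts as a scaffold for other matrix proteins, fibrillin-1 forms the microfibrils of elastic fibres, and fibulin-2 binds both. Decorin, biglycan and lumican are proteoglycans that attach to collagen and shape its fibrils. Periostin, tenascin-C and SPARC are matricellular proteins, which change how cells interact with the matrix more than they bear load, and lysyl oxidase oxidises lysines of collagen and elastin so that they crosslink. In the embryo several of these genes are used by mesenchyme and by the forming heart, where periostin marks the endocardial cushions and cardiac fibroblasts.

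For 6 of the genes (Postn, Bgn, Fbn1, Fbln2, Sparc and Tnc), a window of the 250 bases before the transcription start was matched in RefSeq sequence of build GRCm38.p6. The windows of 4 are shown as examples of both directions: Postn and Sparc were the genes called higher at day 9 of differentiation than at day 0, and Bgn and Tnc were among those called lower. Each runs 5′ to 3′ on the strand of the gene and ends at the base before the start. Capitals mark TATAAA in Postn (chr3:54360857-54361106, plus strand) and in Tnc (chr4:64046937-64047186, minus strand), CCGCCC in Bgn (chrX:73483351-73483600, plus strand), and GTCTG in Sparc (chr11:55420081-55420330, minus strand).
Postn: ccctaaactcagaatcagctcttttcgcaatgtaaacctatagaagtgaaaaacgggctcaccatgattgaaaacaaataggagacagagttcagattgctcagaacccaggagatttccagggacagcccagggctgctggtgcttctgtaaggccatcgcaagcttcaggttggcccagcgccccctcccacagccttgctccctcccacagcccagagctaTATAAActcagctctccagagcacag
Sparc: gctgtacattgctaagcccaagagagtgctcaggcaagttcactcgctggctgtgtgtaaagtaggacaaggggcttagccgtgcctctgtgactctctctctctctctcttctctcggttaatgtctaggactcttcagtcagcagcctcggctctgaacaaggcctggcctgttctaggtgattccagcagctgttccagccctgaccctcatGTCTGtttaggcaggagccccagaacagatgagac
Bgn: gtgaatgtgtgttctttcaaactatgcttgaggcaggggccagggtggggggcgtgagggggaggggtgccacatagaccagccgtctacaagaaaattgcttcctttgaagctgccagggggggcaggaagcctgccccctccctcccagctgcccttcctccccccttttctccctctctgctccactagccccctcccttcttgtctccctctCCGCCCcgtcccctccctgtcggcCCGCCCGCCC
Tnc: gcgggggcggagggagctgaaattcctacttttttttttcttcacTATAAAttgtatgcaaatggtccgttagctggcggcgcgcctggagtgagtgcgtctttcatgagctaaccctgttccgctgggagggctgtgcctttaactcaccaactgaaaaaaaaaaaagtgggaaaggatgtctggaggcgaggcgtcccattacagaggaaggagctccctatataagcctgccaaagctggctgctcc

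The letter patterns of 6 motifs were searched on both strands of these windows, with positions given from the base before the start as -1. The TATA box pattern TATAAA was found in 2 of the 6 windows searched, at -26 in Postn and at -205 in Tnc, and 12.4% of all 32851 windows of this length held it. The GC box pattern GGGCGG, or CCGCCC on the other strand, was found in 4 windows (Bgn, Fbn1, Fbln2 and Tnc), against 32.7% of all windows. Bgn held it 3 times, at -34, -10 and -6, and the last 2 overlap. The SMAD-binding element CAGAC (or GTCTG) was found in Sparc at -35 and in Tnc at -70, and in 42.2% of all windows. No match to CCAAT, to the AP-1 pattern TGANTCA or to the TEAD pattern CATTCC was found in the 6 windows, against 33.8%, 6.75% and 12.6% of all windows. These matches describe letters in a short window only.

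In the mm9 genome build of the files, Fn1 lies on chromosome 1 (71632096 to 71699745), Postn on chromosome 3 (54165046 to 54194954), Fbn1 on chromosome 2 (125126329 to 125332174), Fbln2 on chromosome 6 (91162757 to 91222534) and Sparc on chromosome 11 (55208002 to 55233582). Tnc lies on chromosome 4 (63620818 to 63681760), Bgn on chromosome X (70728973 to 70741275) and Lox on chromosome 18. Dcn (96942133 to 96980796) and Lum (97028134 to 97035337) are neighbours on chromosome 10.

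The discovery libraries held 7536503 to 23662593 reads, so that 3 reads corresponded to between 0.127 and 0.398 CPM (counts scaled to library size). For the time course, where depth had to be inferred from the smallest steps of the FPKM values, 3 reads on a gene of 1 kb corresponded to between 0.27 and 0.442 FPKM. Summed fibroblast markers (10 genes) separated MEF from all other libraries, with 1903 and 1124 TPM (a level scaled to transcript length and library size) in lines 11.3 and 11.5, 801 TPM in miPS, 21033 TPM in MEF and 499 to 823 TPM in mESC. Summed pluripotency markers (7 genes) stood at 7479 and 7172 TPM in lines 11.3 and 11.5, above every mESC library, at 5717 TPM in miPS, at 5.71 TPM in MEF and at 3668 to 6122 TPM in mESC. In each partially reprogrammed line 5 of these 7 genes reached 1 TPM, against 7 of 7 in each mESC library. Tested with edgeR, 5 of the 7 were called lower in the partially reprogrammed lines than in mESC and 1 was called higher. The high sums of these lines therefore do not stand for the list as a whole. In the time course, hairpin B at days 6 and 9 lay closer to day 0 than the other cultures of those days did. Their log2 profiles correlated with the day 0 libraries at r between 0.934 and 0.945 (day 6) and between 0.944 and 0.953 (day 9), while those of the other cultures at these days gave 0.846 to 0.893. Where leaving these libraries out changed a call between days or its direction for the 10 genes, or moved their fold between days by over 1.5 times, this is stated beside the result. Genes of the other lists carry no such statement, and hairpin B may weigh on their folds too. The libraries were singled out for lying close to day 0, so leaving them out favours differences between days. The p-values of that fit show how much a call depends on them and are not further evidence. Separate cultures are not named for the libraries of E14 or for those of v6.5. Lines 11.3 and 11.5 are different lines tested as 1 group, and A and B are different hairpins. The p-values therefore cover only the spread seen between these libraries. It mixes differences between lines or hairpins with spread that may be technical.

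Each of the 9 matrix genes that could be tested was higher in MEF than in mESC. Postn differed most, by 6.68 ± 0.41 on the log2 scale (SE), followed by Tnc with 6.12 ± 0.36, Fbn1 with 5.65 ± 0.43, Bgn with 5.58 ± 0.50 and Lox with 5.51 ± 0.32. Fbln2 differed by 5.30 ± 0.90, Dcn by 4.96 ± 0.68, Sparc by 4.69 ± 0.27 and Fn1, the least, by 3.82 ± 0.29. In this comparison 15.4% of the 16773 genes tested were called higher in MEF, and the 9 genes had a median log2 difference of 5.51, against -0.19 over all genes tested. Their adjusted p-values ran from 0.00102 to 0.00969 (edgeR's quasi-likelihood test with Benjamini-Hochberg adjustment, threshold 0.05). MEF was 1 library, so its spread was taken from the groups with 2 libraries. Lum stayed below the minimum of 1 CPM in 2 libraries, and only its values are given. In bulk RNA, fewer cells of a type and less RNA per cell cannot be told apart.

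The levels per length show what these folds rest on. Among the fibril-forming scaffolds, Fn1 stood at 4229 TPM in MEF, against 501 and 512 TPM in E14 and 254 and 346 TPM in v6.5. Fbn1 read 461 TPM in MEF, against 11.4 and 14.7 TPM in E14 and 7.39 and 15.4 TPM in v6.5. The microfibril and fibronectin binder Fbln2 read 2018 TPM in MEF, against 59.8 and 59.6 TPM in E14 and 102 and 38.3 TPM in v6.5. In all 3 the MEF value lay far above the highest mESC value, and for Fbln2 the 2 v6.5 libraries lay on either side of the 2 E14 libraries.

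Of the proteoglycans, Bgn was abundant in MEF and Dcn and Lum were not. Bgn read 3386 TPM in MEF, against 67.2 and 71.3 TPM in E14 and 92.9 and 141 TPM in v6.5. Dcn read 18.6 TPM in MEF, against 0.417 and 0.885 TPM in E14 and 0.692 and 1.55 TPM in v6.5, and rested on 5 to 20 reads in each mESC library. Lum read 4.17 TPM in MEF (36 reads), against 0 to 6 reads in the mESC libraries. The matricellular genes were also high: Sparc stood at 3758 TPM in MEF, against 159.6 and 162 TPM in E14 and 214 and 231 TPM in v6.5. Tnc stood at 1799 TPM in MEF, against 31.4 and 33.1 TPM in E14 and 35.6 and 31.7 TPM in v6.5. Postn stood at 392 TPM in MEF, against 4.23 and 6.38 TPM in E14 and 3.28 and 8.19 TPM in v6.5. Lox, the crosslinking enzyme, stood at 1187 TPM in MEF, against 30.9 and 27.8 TPM in E14 and 38.8 and 28.3 TPM in v6.5. MEF was the highest of the 8 libraries for every one of the 10 genes.

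**Figure D1:**
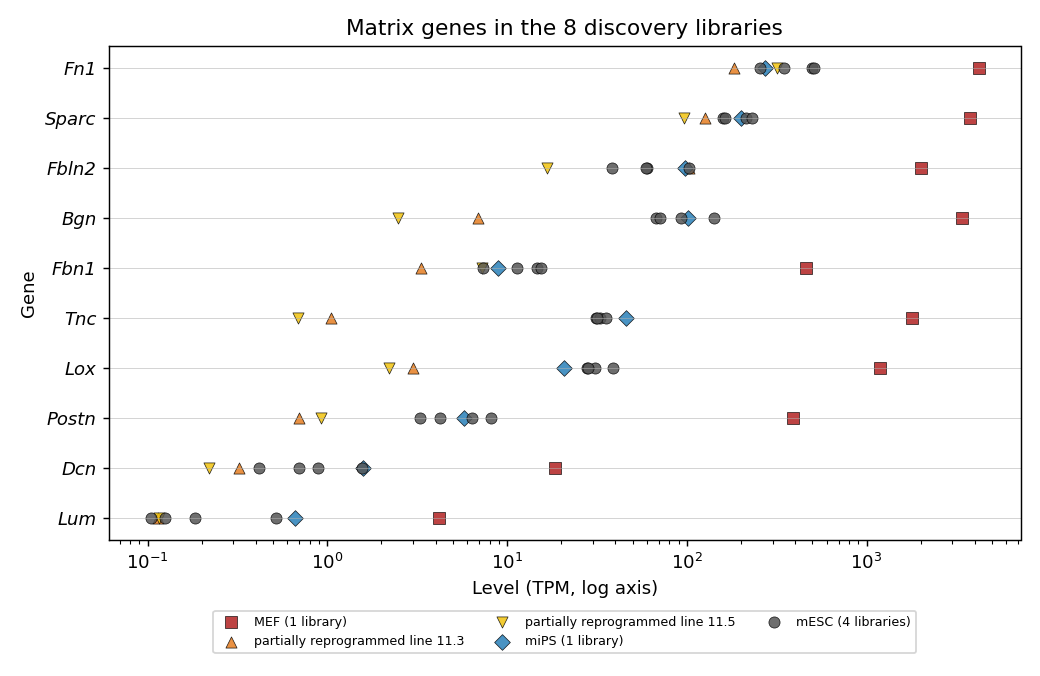
Level of the 10 matrix genes in the 8 discovery libraries, in TPM on a log axis, with 1 symbol per library. The MEF library lies to the right of the other 7 for each gene. The partially reprogrammed lines 11.3 and 11.5 lie left of the mESC libraries for Bgn, Tnc, Lox and Postn. They also lie left of them, by smaller margins, for Sparc, Fbn1 and Dcn. For Dcn these lines held 1 and 0 reads, and the TPM did not fall to 0, so its margin is not a measured one.

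The genes had the same order by mean level in mESC as in MEF. Fn1 averaged 403 ± 125 TPM (SD, n = 4 libraries) and Sparc 192 ± 36.2 TPM, then Bgn with 93.1 ± 33.9 TPM and Fbln2 with 65.0 ± 26.9 TPM, whose ranges overlap. Tnc with 32.9 ± 1.88 TPM and Lox with 31.4 ± 5.10 TPM did not differ beyond their spread. Fbn1 followed with 12.2 ± 3.66 TPM and Postn with 5.52 ± 2.20 TPM, which overlapped in range, and then Dcn with 0.886 ± 0.483 TPM and Lum with 0.232 ± 0.192 TPM, which did too. No difference between the lines passed the test. E14 over v6.5 gave log2 differences between -0.96 (Bgn) and 0.62 (Fn1), with 0 of the 9 genes called at an unadjusted p under 0.05 or after adjustment by edgeR, and 0 by DESeq2. In that comparison 0.489% of all genes were called.

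Fibroblast markers were at similar shares of their MEF level. As a share of the MEF level, the 10 matrix genes had medians of 2.54% and 3.07% in E14 and 3.01% and 3.75% in v6.5, and the 10 fibroblast markers medians of 3.60% and 3.75% in E14 and 3.03% and 3.90% in v6.5. All 10 markers were at 1 TPM or more in every mESC library. The collagen gene Col1a1, a defining product of fibroblasts, stood at 0.700% to 1.08% of its MEF level in mESC, Postn at 0.836% to 2.09% and Tnc at 1.75% to 1.98%. Fn1 stood at 6.01% to 12.1% and Sparc at 4.25% to 6.14%. Carried-over feeder cells were not measured, and their part in the mESC levels was not tested.

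The partially reprogrammed lines, which were made from these fibroblasts and grew without feeders, held little of the matrix transcripts. All 9 genes tested were lower in the partially reprogrammed lines than in MEF, where 8.87% of all genes tested were called lower, with adjusted p between 0.000990 and 0.0334 (edgeR). Their median log2 difference was -8.35, against 0.15 over all genes. Tnc read 1.05 TPM in line 11.3 and 0.691 TPM in line 11.5, against 1799 TPM in MEF (log2 difference -11.84 ± 0.59). Bgn read 6.89 and 2.46 TPM in lines 11.3 and 11.5, against 3386 TPM in MEF (-9.83 ± 0.77). Lox read 3.00 and 2.19 TPM in the 2 lines, against 1187 TPM in MEF (-9.14 ± 0.48). Tnc stood at 0.0583% and 0.0384% of the MEF level, Bgn at 0.203% and 0.0728%, and Lox at 0.253% and 0.185%.

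Postn, Dcn and Lum had almost no reads in these lines. The 2 partially reprogrammed libraries together held 2 Postn reads, against 6720 in MEF, a ratio of MEF to partially reprogrammed of 5786 after scaling to the library totals (95% interval from 1601 to 47789, counting error only). Dcn had 1 read, against 170 in MEF (ratio 293, interval 51.8 to 11630). Lum had 0 reads, against 36 in MEF, which puts MEF at least 20.7-fold higher when the floor of 3 reads is taken over both libraries. Their deposited TPM did not fall to 0 for such genes (line 11.5 had 0 Dcn reads and 0.220 TPM).

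Fn1, Sparc, Fbn1 and Fbln2 kept more. Fn1 read 182 TPM in line 11.3 and 316 TPM in line 11.5, against 4229 TPM in MEF (log2 difference -4.33 ± 0.37). Sparc read 126 and 96.0 TPM in lines 11.3 and 11.5, against 3758 TPM in MEF (-5.30 ± 0.36). Fbn1 read 3.33 and 7.26 TPM in the 2 lines, against 461 TPM in MEF (-6.73 ± 0.59). Fbln2 set the 2 lines apart, with 103 TPM in line 11.3 and 16.7 TPM in line 11.5, against 2018 TPM in MEF (-5.31 ± 1.17). Its call was lost when line 11.5 was left out (log2 difference -4.45), and when E14 replicate 1 (-5.29) or replicate 2 (-5.31) was left out.

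**Figure D2:**
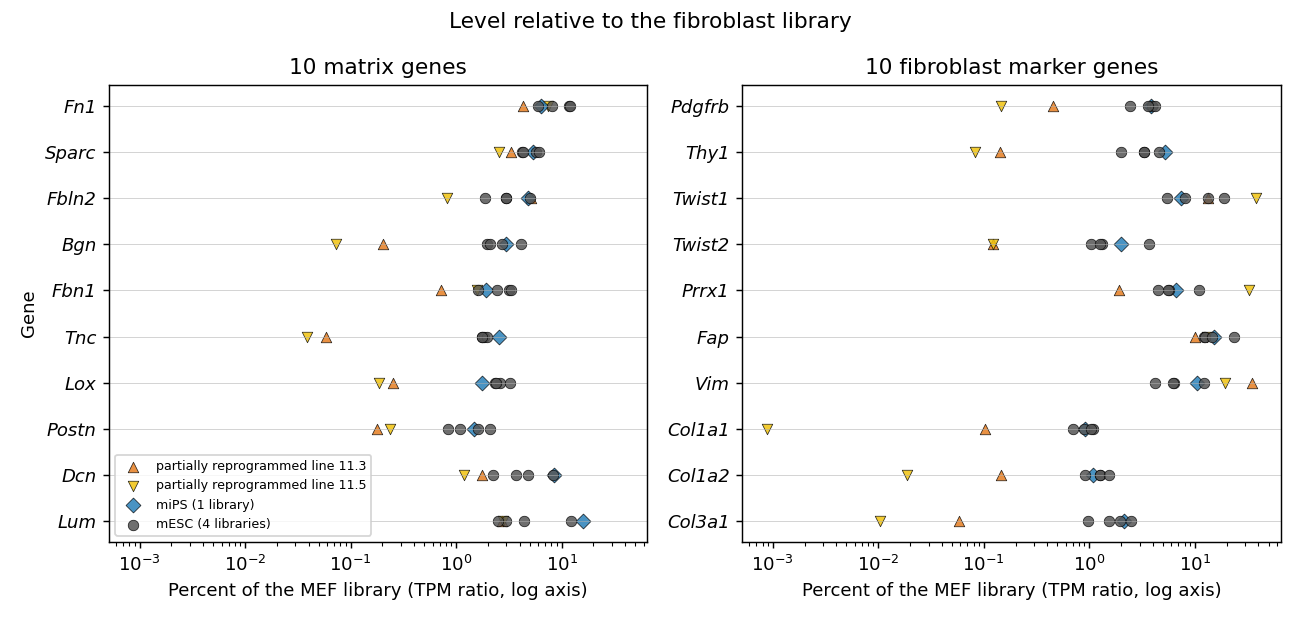
Level in percent of the MEF library, from TPM on a log axis, for the 10 matrix genes and for 10 fibroblast marker genes, with 1 symbol per library. Bgn, Tnc, Lox, Postn and the collagen markers of both partially reprogrammed lines lie at or below 0.253%, while Fn1, Sparc, Vim and Twist1 of these lines lie at or above 2.55%.

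Against mESC, the partially reprogrammed lines had lower levels of some of the genes. Postn, Tnc, Bgn and Lox were lower in the partially reprogrammed lines than in mESC, with log2 differences of -6.08 ± 0.66, -5.72 ± 0.45, -4.25 ± 0.57 and -3.64 ± 0.36 and adjusted p of 0.00264, 0.00133, 0.00471 and 0.00214 (edgeR). These are 4 of the 9 genes tested, in a comparison that called 16.1% of all genes lower. The other 5 did not pass: Dcn with -3.38 ± 1.13, Fbn1 with -1.08 ± 0.41, Sparc with -0.61 ± 0.25, Fn1 with -0.51 ± 0.27 and Fbln2 with -0.01 ± 0.80. Which of these pass depends on the settings: at similar log2 differences Fbn1 was called by DESeq2 (adjusted p = 0.0295) and with no filter on low counts (0.0163), Dcn with no filter (0.0231) and Sparc by limma on TPM (0.0350). The fibroblast markers divided too. Col1a1 stood at 0.103% of its MEF level in line 11.3 and 0.000878% in line 11.5, Thy1 at 0.143% and 0.0827%, and Pdgfrb at 0.455% and 0.146%. The intermediate filament gene Vim stood at 34.6% and 19.2% and the mesenchymal transcription factor Twist1 at 13.5% and 38.1% in the same lines. Since the partially reprogrammed lines had no feeders and the mESC did, culture and cell state cannot be told apart in this comparison.

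The fully reprogrammed miPS line lay closer to mESC than to MEF for each gene. It stood above all 4 mESC libraries for Tnc, Dcn and Lum and below all of them for Lox. Its 10 matrix genes had a median of 3.92% of the MEF level, and 7 of the 9 tested were lower in miPS than in MEF, where 5.7% of all genes were called lower. They were Lox (20.7 TPM in miPS, log2 difference -6.09 ± 0.58), Postn (5.78 TPM, -6.46 ± 0.74), Fbn1 (8.93 TPM, -5.96 ± 0.78), Tnc (46.0 TPM, -5.55 ± 0.63), Bgn (101 TPM, -5.28 ± 0.87), Sparc (200.0 TPM, -4.44 ± 0.46) and Fn1 (271 TPM, -4.20 ± 0.48). Fbln2 (97.8 TPM, -4.59 ± 1.51) and Dcn (1.57 TPM, -3.94 ± 1.11) did not pass, with adjusted p of 0.0967 and 0.0678 (edgeR). At similar log2 differences both were called by DESeq2 (adjusted p of 0.000879 and 0.00737) and with no filter on low counts (0.00227 and 0.0202). Both groups were 1 library, and the count of 7 became 0 when E14 replicate 1 or E14 replicate 2 was left out. The log2 differences hardly moved in these fits (Lox -6.09 and -6.08, Fn1 -4.21 and -4.20), and the adjusted p of the 7 genes lay between 0.0573 and 0.0699. Against mESC, miPS gave log2 differences between -0.58 ± 0.39 (Lox) and 1.03 ± 0.83 (Dcn), and 0 of the 9 genes were called by edgeR, at an unadjusted p under 0.05, or by DESeq2. That comparison called 0.0298% of all genes, so its failure to call does not show that the levels were alike.

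In the differentiating cultures the matrix genes did not move as a block. Between day 0 and day 3 the mean level of every gene but Sparc came to 45.5% or less of its day 0 mean, and 4 of the 10 (Bgn, Lox, Fbln2 and Tnc) were called lower at day 3, where 2.78% of the 14108 genes tested were. All 4 were still lower at days 6 and 9, when Sparc was higher, and Postn was higher at day 9. The median log2 difference of the 10 genes was -1.59 at day 3, -0.34 at day 6 and -0.52 at day 9, against 0.01, 0.07 and 0.10 over all genes. These values are FPKM (fragments scaled to transcript length and to library size), tested with limma on log2(FPKM + 1), and the 3 comparisons share the day 0 libraries.

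Lox and Bgn fell most on the tested scale of log2(FPKM + 1), which understates the changes of low genes. On that scale Bgn had the larger difference at days 3 and 6, and Lox at day 9. As a share of the day 0 mean, Lox stood below Bgn at days 3, 6 and 9. By that measure Postn and Lum stood below both at day 3. Lox read 14.6, 17.4 and 13.997 FPKM at day 0 in the hairpin A, hairpin B and scrambled cultures, and 0.172, 0.229 and 0.230 FPKM at day 3. At day 6 it read 0.418, 0.271 and 0.334 FPKM and at day 9 0.514, 0.147 and 0.579 FPKM in the same cultures. The groups did not overlap, and the mean stayed at 1.37%, 2.23% and 2.70% of the day 0 mean at days 3, 6 and 9 (log2 differences -3.75, -3.60 and -3.54, each ± 0.17, adjusted p from 5.71e-06 to 2.08e-05, limma). Bgn read 50.2, 45.9 and 43.4 FPKM at day 0 in hairpin A, hairpin B and scrambled, and 0.878, 0.749 and 0.680 FPKM at day 3. It then stood at 2.30, 2.74 and 1.65 FPKM at day 6 and 5.92, 6.60 and 7.25 FPKM at day 9. All 3 cultures followed this course, and the log2 differences from day 0 were -4.75, -3.89 and -2.65 (each ± 0.15, adjusted p from 4.02e-07 to 7.09e-05).

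Bgn was also the gene called between days 6 and 9, higher at day 9 by 1.24 ± 0.15 (adjusted p = 0.0309), in a comparison that called 0.0142% of genes higher. The call was lost without a filter on low values and when any single library was left out other than hairpin B at days 0, 6 and 9, with log2 differences between 1.11 and 1.33 in those fits. With the hairpin B libraries of days 6 and 9 left out, 5 of the 10 genes were called between these days (Bgn, Postn, Lum and Dcn higher at day 9, Fn1 lower). Over all genes 2242 were called in that fit, and the limit on Lum and Dcn is given below.

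Tnc and Fbln2 fell at day 3 and stood above that level, but below day 0, at days 6 and 9. Tnc read 10.3, 13.6 and 8.27 FPKM at day 0 in hairpin A, hairpin B and scrambled, and 0.201, 0.188 and 0.224 FPKM at day 3. It stood at 2.39, 3.52 and 4.10 FPKM at day 6 and at 1.11, 1.15 and 2.44 FPKM at day 9, below day 0 in every culture (log2 differences -3.26, -1.43 and -2.21, each ± 0.25). Fbln2 read 26.8, 26.0 and 20.4 FPKM at day 0, and 1.49, 0.779 and 1.13 FPKM at day 3. It stood at 5.34, 1.59 and 5.02 FPKM at day 6 and at 6.10, 2.11 and 5.71 FPKM at day 9 (log2 differences -3.58, -2.45 and -2.26, each ± 0.39). The Tnc call at day 6 was lost without the day 6 scrambled (-1.53), day 0 hairpin A (-1.42) or day 6 hairpin A (-1.28) library. The Fbln2 call was lost at day 6 without the day 6 scrambled (-2.62) or day 0 hairpin A (-2.34) library, and at day 9 without the day 0 scrambled (-2.50), day 9 scrambled (-2.40) or day 0 hairpin A (-2.15) library.

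Sparc took the opposite course. It read 65.6, 77.6 and 63.0 FPKM at day 0 in hairpin A, hairpin B and scrambled, and 44.4, 70.3 and 62.1 FPKM at day 3, when it was not called. At day 6 it stood at 177, 152 and 177 FPKM and at day 9 at 143, 140.1 and 178 FPKM, above each day 0 library. It was higher by 1.28 ± 0.17 at day 6 (adjusted p = 0.00482), where 4.97% of genes were called higher, and by 1.15 ± 0.17 at day 9 (adjusted p = 0.0101), where 10.3% were. At day 9 the call was lost without the day 0 scrambled (1.02) or the day 9 scrambled (1.05) library. Sparc encodes a collagen-binding protein that is also abundant in basement membranes and in parietal endoderm, and the summed markers of parietal endoderm (8 genes, among them the collagen IV genes Col4a1 and Col4a2) stood at 47.8 to 56.9 FPKM at day 0, 70.0 to 122 FPKM at day 6 and 84.6 to 157 FPKM at day 9. The part of that cell type in the Sparc result was not tested.

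Postn was close to 0 at day 3 and above its starting level at day 9. It read 3.26, 3.24 and 3.17 FPKM at day 0 in hairpin A, hairpin B and scrambled, and at day 3 it was listed at 0 in hairpin A and read 0.0261 and 0.0262 FPKM in hairpin B and scrambled. It stood at 2.38, 0.850 and 4.41 FPKM at day 6 and at 27.0, 4.40 and 38.5 FPKM at day 9, above day 0 in all 3 cultures and lowest in hairpin B. The mean at day 9 was 723% of that at day 0, a log2 difference of 2.10 ± 0.58 (adjusted p = 0.0420, limma), and the call was lost without a filter on low values and when any library other than hairpin B at days 6 and 9 was left out (log2 differences 1.65 to 2.23). Without the day 9 hairpin B library the difference was 2.91 and still called, and without the hairpin B libraries of days 6 and 9 it was 2.94 (adjusted p = 1.26e-05). Both fits leave out the lowest Postn value of day 9, so their p-values are not further evidence. The day 3 difference of -2.05 ± 0.58 missed the threshold (adjusted p = 0.0682) and passed it with culture as a block (adjusted p = 0.0439) and without the hairpin B libraries of days 6 and 9 (adjusted p = 0.000239).

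Dcn and Lum, the neighbours on chromosome 10, shared a late course that hairpin B lacked. Dcn read 0.790, 0.518 and 0.925 FPKM at day 0 in hairpin A, hairpin B and scrambled, 0.153, 0.0952 and 0.239 FPKM at day 3, 1.87, 0.376 and 0.926 FPKM at day 6 and 3.92, 0.173 and 6.15 FPKM at day 9. Lum read 0.214, 0.208 and 0.214 FPKM at day 0, was listed at 0 in all 3 cultures at day 3, read 0.760, 0.0411 and 2.38 FPKM at day 6 and 10.3, 0.191 and 27.6 FPKM at day 9. In the hairpin A and scrambled cultures both genes were well above day 0 at day 9, and in hairpin B neither was above it. The day 9 differences from day 0 were 0.99 ± 0.53 for Dcn (adjusted p = 0.183) and 2.59 ± 0.83 for Lum (adjusted p = 0.0569), and neither was called. Without the hairpin B libraries of days 6 and 9 they were 1.76 for Dcn (adjusted p = 0.000319) and 3.81 for Lum (adjusted p = 3.66e-05), and Lum was also called higher at day 6 (0.93, adjusted p = 0.0378). With culture as a block Lum was called at day 9 (adjusted p = 0.0388). Both genes reached 1 FPKM only in hairpin A and scrambled libraries of days 6 and 9, and were tested only through these. The fit without hairpin B also leaves out the late libraries where they were low. Their p-values therefore cannot serve as evidence of a late rise. The authors' quantification marked Dcn as low data in 5 of the 12 libraries.

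Fn1 and Fbn1 were not called at any day. Fn1 read 204, 192 and 191 FPKM at day 0 in hairpin A, hairpin B and scrambled, 80.9, 99.6 and 86.9 FPKM at day 3, 156, 175 and 186 FPKM at day 6, and 76.1, 190.0 and 79.5 FPKM at day 9. Every day 3 library lay below every day 0 library, and at day 9 hairpin B stood at its day 0 level while the other cultures did not. The differences of -1.13 ± 0.29 at day 3 and -0.89 ± 0.29 at day 9 missed the threshold (adjusted p of 0.0508 and 0.0585) and passed it with culture as a block (0.0305 and 0.0338). Without the hairpin B libraries of days 6 and 9 Fn1 was called lower at day 3 (-1.13, adjusted p = 0.000403) and at day 9 (-1.33, adjusted p = 5.03e-05). That fit leaves out the day 9 library in which Fn1 stood at its day 0 level, so its p-values are not further evidence. Fbn1 read 2.55, 3.57 and 2.75 FPKM at day 0, 0.904, 1.09 and 0.919 FPKM at day 3, 1.94, 0.951 and 4.63 FPKM at day 6 and 3.02, 0.854 and 4.95 FPKM at day 9. Its log2 differences missed the threshold (-0.999, -0.30 and -0.15, each ± 0.39), and without the hairpin B libraries of days 6 and 9 it was called lower at day 3 (adjusted p = 0.0156), with differences of 0.0032 at day 6 and 0.27 at day 9.

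**Figure D3:**
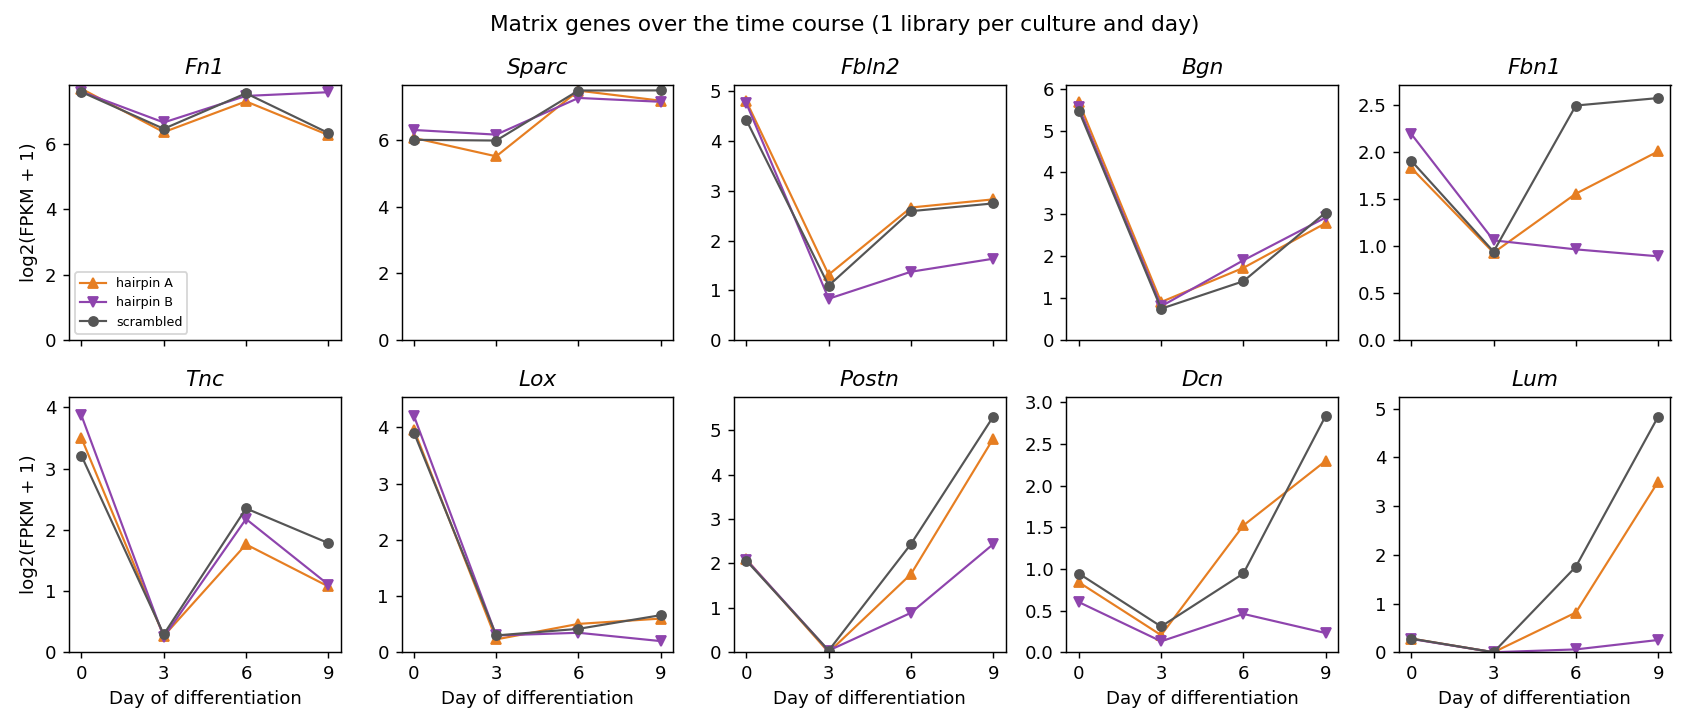
Level of the 10 matrix genes as log2(FPKM + 1) against the day of differentiation, with 1 line per culture and 1 library per point, and a separate vertical scale from 0 for each gene. Bgn, Fbln2, Tnc and Lox drop between days 0 and 3 and stay below day 0, Sparc ends above it, and Postn, Dcn and Lum end above it in the hairpin A and scrambled cultures.

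Of the 10 genes, 4 were called lower at day 9, where 6.22% of all genes were, and 2 higher, where 10.3% were. At day 6 there were 4 lower, where 3.71% of genes were called lower, and 1 higher, where 4.97% were. With culture as a block 6 genes were called at day 3, 5 at day 6 and 8 at day 9. Over all genes that setting called 1360, 2204 and 4218, against 852, 1224 and 2337 in the main fit. Without the hairpin B libraries of days 6 and 9 the counts of matrix genes were 7, 6 and 9. Over all genes 3801, 6486 and 8404 were then called, so the larger counts were not particular to the matrix genes. At day 9 the count was 3 when the day 0 scrambled or the day 9 scrambled library was left out, and at day 6 it was 3 without the day 6 scrambled or the day 0 hairpin A library.

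Among the fibroblast markers the 2 collagen I genes fell at day 3 as well. The list's summed level was 185 to 299 FPKM at day 0, 70.9 to 88.4 FPKM at day 3, 175 to 190.1 FPKM at day 6 and 145 to 512 FPKM at day 9, with most of it from Vim. Of the 9 tested, 2 were called lower at day 3, Col1a1 and Col1a2. Col1a1 read 14.1, 18.0 and 10.3 FPKM at day 0 in hairpin A, hairpin B and scrambled, and 1.24, 0.399 and 0.679 FPKM at day 3 (log2 difference -3.08 ± 0.40). It stood at 2.59, 7.24 and 4.22 FPKM at day 9. Col1a2 read 15.4, 15.6 and 12.5 FPKM at day 0, and 0.507, 0.568 and 0.491 FPKM at day 3 (-3.34 ± 0.39). Per the labels, feeders were removed by pre-plating before embryoid body formation, and the directed protocol had none. The part of feeder cells at day 0 in the fall of the matrix genes was not tested.

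Other genes of the matrix were described from lists of relatives and partners of the 10 genes. All 7 fibrillar collagens tested were higher in MEF than in mESC, where 15.4% of all genes were (median log2 difference 6.36), and all 4 relatives of Lox were (median 4.89). Of the collagen-processing genes, 11 of 12 were higher (median 2.81), of the proteases and their inhibitors 8 of 9 (median 4.08), and of the elastic fibre and microfibril genes 10 of 13 (median 4.59). Matricellular genes gave 11 of 15 (median 3.42), TGF-beta signalling genes 6 of 8 (median 4.08), integrin receptors for fibronectin and tenascin 4 of 6 (median 2.85), and the other small leucine-rich proteoglycans 2 of 6 (median 2.88). None of the genes in these lists was called lower in MEF. In the partially reprogrammed lines against MEF, where 8.87% of all genes were called lower, all 7 fibrillar collagens were lower (median -11.12), as were 9 of 9 proteases and inhibitors (median -6.19), 11 of 13 elastic fibre genes (median -6.99) and 8 of 15 matricellular genes (median -5.43), among which 1 was higher. The other lists had 3 of 4 relatives of Lox (median -5.46), 5 of 6 integrin receptors (median -3.13), 7 of 12 collagen-processing genes (median -1.998), 4 of 8 TGF-beta signalling genes (median -3.36) and 2 of 6 small leucine-rich proteoglycans (median -4.48) called lower. The crosslinking enzyme Loxl1 read 1.17 and 0.590 TPM in lines 11.3 and 11.5, against 533 TPM in MEF, while the elastic fibre gene Efemp2 kept 154 and 108 TPM in these lines, against 508 TPM in MEF.

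Over the time course these lists were mixed, as the 10 genes were. At day 3, where 2.78% of all genes were called lower, 4 of 7 fibrillar collagens were called lower (median -1.64), 3 of 12 matricellular genes (median -0.54), 2 of 12 elastic fibre genes (median -0.07) and 1 of 3 relatives of Lox (median -0.82). None of the genes in these 4 lists was called higher at day 3. By day 9 the collagen-processing genes had 3 of 11 called higher and 0 lower, where 10.3% of all genes were called higher. Serpinh1, the collagen chaperone, read 225, 75.4 and 288 FPKM at day 9 in hairpin A, hairpin B and scrambled, and 56.0, 51.7 and 59.4 FPKM at day 0 (log2 difference 1.59 ± 0.39, adjusted p = 0.0335). Plod2, a collagen lysyl hydroxylase, was higher by 1.06 ± 0.27. The relatives of Lox parted ways: Loxl1 and Loxl3 were lower at day 9 (-0.76 ± 0.21 and -0.84 ± 0.25), while Loxl2 read 26.0, 11.0 and 35.2 FPKM at day 9, against 10.9, 5.93 and 13.4 FPKM at day 0, and missed the threshold (1.10 ± 0.36, adjusted p = 0.0595). Spp1, the matricellular osteopontin gene, read 41.8, 239.7 and 34.6 FPKM at day 9, against 465, 292 and 394 FPKM at day 0 (-2.40 ± 0.63, adjusted p = 0.0383).

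Against the scrambled culture, the matrix genes with Braveheart hairpins were lower at day 9 in most cases, but no difference was called. Both hairpin libraries lay below the scrambled library for 8 of the 10 genes at day 9, above it for 0 and on either side of it for Fn1 and Fbln2. Over all genes tested, 34.2% lay below in both hairpins and 22.3% above in both. All 10 genes are set against the same 1 scrambled library, and several of them correlate over the libraries. The count of 8 is therefore a description and not 8 separate results. Among the 8, Lox stood under 1 FPKM in all 3 cultures, and Dcn and Lum passed the filter only through late hairpin A and scrambled libraries. The 10 genes had a median log2 difference of -0.40 with hairpin A and -0.89 with hairpin B, against -0.03 and -0.10 over all genes. Lum had the widest gap, at 10.3 FPKM with hairpin A and 0.191 FPKM with hairpin B, against 27.6 FPKM in the scrambled library (log2 difference -2.96 ± 1.16). Postn stood at 70.2% of scrambled with hairpin A and 11.4% with hairpin B (-1.68 ± 0.89), Dcn at 63.7% and 2.81% (-1.57 ± 0.84), and Fbn1 at 61.0% and 17.3% (-1.12 ± 0.52). Tnc stood at 45.3% with hairpin A and 47.1% with hairpin B (-0.69 ± 0.31), and Sparc at 80.6% and 78.8% (-0.32 ± 0.29). Fn1 stood at 95.7% with hairpin A and 239% with hairpin B (0.59 ± 0.48).

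By limma, 0 of the 10 genes were called at day 9 (adjusted p from 0.873 to 0.875), in a comparison that called 0.0354% of all genes, and 1 had an unadjusted p under 0.05. Only the A and B pairs gave an estimate of spread here (4 residual degrees of freedom), so that failing to pass does not show that the levels were equal. The log2 difference of Lum was -4.59 without the day 9 hairpin A library and -1.33 without the day 9 hairpin B library. Each of these fits sets 1 hairpin library against 1 scrambled library at day 9. Lum and Dcn reached 1 FPKM only in hairpin A and scrambled libraries of days 6 and 9. Their tests against scrambled therefore cannot serve as evidence of a hairpin effect. Other cell types moved with these values. The summed cardiomyocyte markers (7 genes) read 74.9 FPKM with hairpin A and 12.4 FPKM with hairpin B at day 9, against 432 FPKM in scrambled, the fibroblast markers 314 and 145 FPKM, against 512 FPKM, and the pluripotency markers 945 and 7619 FPKM, against 795 FPKM. Their part in the matrix results was not tested.

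**Figure D4:**
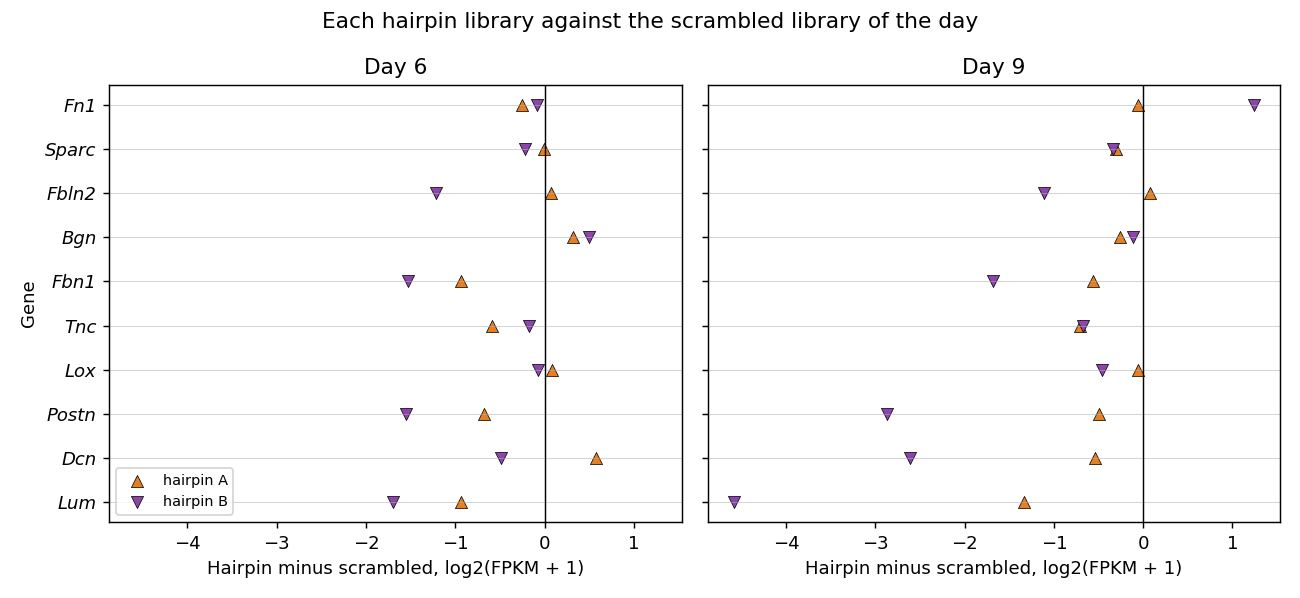
Difference of each hairpin library from the scrambled library of the same day, in log2(FPKM + 1), for the 10 matrix genes at days 6 and 9, with 1 symbol per library and the line at 0 for no difference. At day 9, 8 of the 10 genes have both symbols left of the line, with hairpin B farthest left for Lum, Postn and Dcn.

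At day 6 both hairpins lay below scrambled for 6 of the 10 genes, above it for Bgn, and on either side for Dcn, Fbln2 and Lox, while 33.4% of all genes lay below in both. Fbn1 stood at 41.9% of scrambled with hairpin A and 20.5% with hairpin B (log2 difference -1.23 ± 0.52), Lum at 32.0% and 1.73% (-1.32 ± 1.16) and Postn at 54.0% and 19.3% (-1.11 ± 0.89). Bgn stood at 139.8% and 167% of scrambled (0.41 ± 0.25). At day 0 the genes lay above scrambled in both hairpins for 7 of 10 and below for Dcn and Lum, against 32.0% and 29.9% of all genes, with percentages of scrambled from 85.4 (Dcn) to 131 (Fbln2) for hairpin A and from 56.0 (Dcn) to 165 (Tnc) for hairpin B. At day 3 the log2 differences ran from -0.15 (Sparc) to 0.11 (Bgn). Limma called 0 of the 10 genes at each of days 0, 3 and 6 (adjusted p = 1), where it called 0.0213%, 0.0284% and 0.0425% of all genes, and none of the 10 had an unadjusted p under 0.05. The day 9 effect minus the day 0 effect was also not called for any (log2 differences from -2.96 ± 1.64 for Lum to 0.54 ± 0.68 for Fn1, adjusted p = 1), in a contrast added after the data were seen that called 7 genes in all. Tnc alone of the 10 had an unadjusted p under 0.05 there (-1.17 ± 0.45, unadjusted p = 0.0368).

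The 10 genes were not a single pattern over the time course. Over the 12 libraries, Dcn correlated with Lum (r = 0.932) and Postn with Lum (0.891) and Dcn (0.886), and Bgn, Fbln2, Lox and Tnc with each other (0.844 to 0.922), while Fn1 and Lum gave the lowest value, -0.458. The libraries share cultures, days and depth, so these values are descriptions. The mean of the standardised levels of the 10 genes was most like Fbn1 (r = 0.867) and Fbln2 (0.854) among the 10, which are part of that mean, and least like Fn1 (0.400) and Sparc (0.408). Outside the 10, the genes most like this mean were Ccdc80 (r = 0.985), Axl (0.967), Timp2 (0.957), Col6a1 (0.954) and Prrx1 (0.940), then D3Ertd254e, Thbd, Oaf, Lgals8 and Ncam1 (0.937 to 0.924). Over the 8 discovery libraries, where the MEF library sets the pattern, they were Mfap4, Eln, Bmp1, Cdh11, Mcpt8, Rhoj, Ptx3, Itga11, Plat and Pdgfrb, with r between 0.992 and 0.999.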

How the data were processed

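RNA of 20 mouse libraries had been extracted with TRIzol, enriched for mRNA on beads and sequenced on Illumina instruments, per the labels' protocols. For the 12 time course libraries the authors deposited FPKM values with the tools TopHat 1.14, Bowtie 0.12.7 and Cufflinks 1.3.0 named in the submitters' processing notes, and for the 8 discovery libraries they deposited RSEM expected counts and TPM, with TopHat 1.3 named. Both used build mm9. No source used here states whether counting used the strand. Expected counts were rounded to whole numbers and tested with edgeR 4.0.16 (quasi-likelihood, TMM scaling, at least 1 CPM in 2 libraries, 16773 genes, 5 groups). FPKM values were tested with limma 3.58.1 on log2(FPKM + 1), a scale that understates the changes of low genes, for 14108 genes with at least 1 FPKM in 2 libraries. Days were compared with depletion as a covariate (7 residual degrees of freedom), and hairpins with scrambled by day in a fit of 8 groups (4 residual degrees of freedom). R 4.3.3 and Python 3.11.15 were used, with DESeq2 1.42.0 as an alternative, and p-values were adjusted by Benjamini-Hochberg over all genes with a threshold of 0.05. The tests were tested on simulated data.

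The 10 genes and all lists were chosen with earlier results of these data known. Of each other list, at most the 3 genes with the highest mean level in a set could be named. The fibroblast markers are an exception, as further ones are named where their shares of the MEF level are given. Each culture was one line followed through the days, which pairs its libraries. Deviations of the same culture between days correlated at -0.0910 to 0.642, and the blocked value stands beside a result where it changes the call. The discovery values came with 16 columns of bounds and the time course values with the authors' 8 ratio columns, and none of these were used. Of the 22102 time course entries, 595 shared a name with another. Intervals and floors cover counting error only.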

Additional observations from a re-analysis of the deposited data

How the results depend on the processing

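Of 607 alternative values of matrix genes that were called, 559 kept the call, 48 lost it and 0 changed direction. Of 967 values of genes that were not called, 894 stayed so, 45 gained a call and 28 changed direction. The cause of these changes was not tested. Calls rest on few residual degrees of freedom, so counts over all genes moved widely. For miPS over MEF, 2176 genes became 3529 with DESeq2, 3350 with no filter and 1106 with mESC as 1 group. For miPS over mESC, 5 became 175, 222 and 1 in these, and 0 with limma on TPM. For E14 over v6.5, 82 became 1138 with DESeq2, 1417 with no filter and 565 with limma. The replicate numbers of the mESC libraries are only a number in the labels, with deviations that correlated at 0.396, and as a replicate block they gave 0 matrix genes called between E14 and v6.5.

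With culture as a replicate block, the genes called at days 3, 6 and 9 over day 0 were 1360, 2204 and 4218, against 852, 1224 and 2337 without it, and for day 9 over day 6 they were 34, against 6. It changed no call of a matrix gene other than those given with the results. Without the hairpin B libraries of days 6 and 9 these counts were 3801, 6486, 8404 and 2242, with 7 matrix genes called at day 3 and 5 for day 9 over day 6. With no filter the matrix count for day 9 over day 6 was 0, against 1. Between hairpins and scrambled at days 0, 3, 6 and 9, genes called numbered 14, 9, 26 and 59 with no filter and 0, 0, 0 and 0 with loci under 300 bp left out, against 3, 4, 6 and 5.

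With 1 library left out, genes called ranged from 1584 to 8453 (MEF over mESC), 944 to 4837 (partially reprogrammed over MEF), 0 to 5421 (miPS over MEF), 1952 to 8470 (partially reprogrammed over mESC), 0 to 306 (miPS over mESC) and 0 to 4317 (E14 over v6.5). They ranged from 167 to 2231, 93 to 4169 and 85 to 7479 for days 3, 6 and 9 over day 0, from 3 to 2118 for day 9 over day 6, and from 3 to 9, 4 to 8, 7 to 12 and 6 to 44 for the hairpins at days 0, 3, 6 and 9. Matrix genes called ranged from 9 to 9 for MEF over mESC, 8 to 9 for partially reprogrammed over MEF, 0 to 8 for miPS over MEF and 4 to 6 for partially reprogrammed over mESC, and were 0 for miPS over mESC and for E14 over v6.5. They ranged from 4 to 6, 3 to 5 and 3 to 9 for days 3, 6 and 9, 0 to 5 for day 9 over day 6, and 0 to 1 for the hairpins at day 9, with 0 at days 0, 3 and 6.

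Directions that changed belonged to values that were not called. With a pseudocount of 0.1 the hairpin difference of Dcn at day 6 was -0.083, and without the hairpin B libraries of days 6 and 9 Fbn1 differed from day 0 by 0.0032 at day 6 and 0.27 at day 9. With 1 library left out, Fbln2 ranged from -2.12 to 0.83 in partially reprogrammed over mESC, and in E14 over v6.5 Postn ranged from -0.56 to 0.58, Fbn1 from -0.32 to 0.51, Fbln2 from -0.98 to 0.61, Tnc from -0.41 to 0.028 and Lox from -0.59 to 0.0076. Lum at day 3 ranged from -0.75 to 0.20, Dcn at day 6 from -0.20 to 0.41 and Fbn1 at day 9 from -0.44 to 0.25. For day 9 over day 6, Fbn1 ranged from -0.13 to 0.55, Fbln2 from -0.22 to 0.57 and Lox from -0.041 to 0.21. Between hairpins and scrambled, Dcn ranged from -0.49 to 0.58, Fbln2 from -1.22 to 0.073 and Lox from -0.070 to 0.088 at day 6, and Fn1 from -0.062 to 1.25 and Fbln2 from -1.11 to 0.081 at day 9. Depth limits Dcn and Lum, which rest on few reads outside MEF and the late cultures.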

Other observations

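Genes tied to the matrix differed in how far below MEF they stood in the partially reprogrammed lines. Pcolce, which enhances the processing of procollagen, read 472 TPM in line 11.3 and 551 TPM in line 11.5, against 685 TPM in MEF and 47.4 to 91.5 TPM in mESC. The lysyl oxidase relative Loxl3 read 25.3 and 9.25 TPM in these lines, against 308 TPM in MEF. Thbs1, the thrombospondin-1 gene, read 6.35 and 2.10 TPM in them, against 4338 TPM in MEF and 229 to 255 TPM in mESC. In the time course, the collagen III gene Col3a1 read 27.2 FPKM with hairpin A and 1.15 FPKM with hairpin B at day 9, against 65.1 FPKM in scrambled, the same order of cultures as for Lum, Dcn and Postn. These genes are among the 3 most abundant of their lists, and they were picked from those for the differing patterns described.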
